A study of Mus musculus with 2 samples.

Results

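The genes described here encode 9 lymphocyte adhesion molecules, measured in CH12.LX, a mouse line grown from a B-cell lymphoma. They are the integrin chains Itgal, Itgb2, Itga4, Itgb1 and Itgb7, the immunoglobulin superfamily members Icam1, Icam2 and Pecam1, and the hyaluronan receptor Cd44. The members were given by symbol and matched by Ensembl gene identifier, and all 9 were found among the 43346 Ensembl gene entries of both libraries. No selectin gene is among them, and selectin biology is described only from a wider gene list.

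Polyadenylated RNA was sequenced from 2 biological replicates of CH12.LX, single end, with 22996547 expected counts (estimated read counts) in replicate 1 and 25715408 in replicate 2. The line derives from the strain B10.H-2aH-4bp/Wts and is labelled female and of unknown age, and no treatment or second condition is given, so the libraries form 1 group and no test between groups was made. The values describe 1 cultured tumour line and not B cells in a tissue. The labels list a separate biosample for each library but not how the cultures were related, so the spread between them may be partly technical.

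Integrins are receptors made of 1 alpha and 1 beta chain, and they bind firmly only after signals inside the cell act on the tail of the beta chain. On B cells the pair of Itgal with Itgb2, known as LFA-1, binds ICAM molecules, and Itga4 with Itgb1, known as VLA-4, binds VCAM-1 and fibronectin. CD44 binds the matrix sugar hyaluronan and exists in many splice forms, which differ in a run of variable exons that lengthen the stalk outside the cell.

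All 9 genes were detected, which here means at least 1 TPM in both libraries. TPM is a transcript's share of all transcripts in a library, corrected for its length, so levels of different genes can be compared. Itgb1 and Itgal stood highest, Cd44, Icam1, Itgb2 and Itga4 followed, Icam2 and Pecam1 were lower, and Itgb7 lay just above the threshold. The members held 31776 counts (0.138% of the library) in replicate 1 and 36726 (0.143%) in replicate 2. Detection itself is common, since 10317 of 21474 protein-coding genes (48.0%) passed the same threshold, with a median of 21 TPM among those detected.

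**Figure D1:**
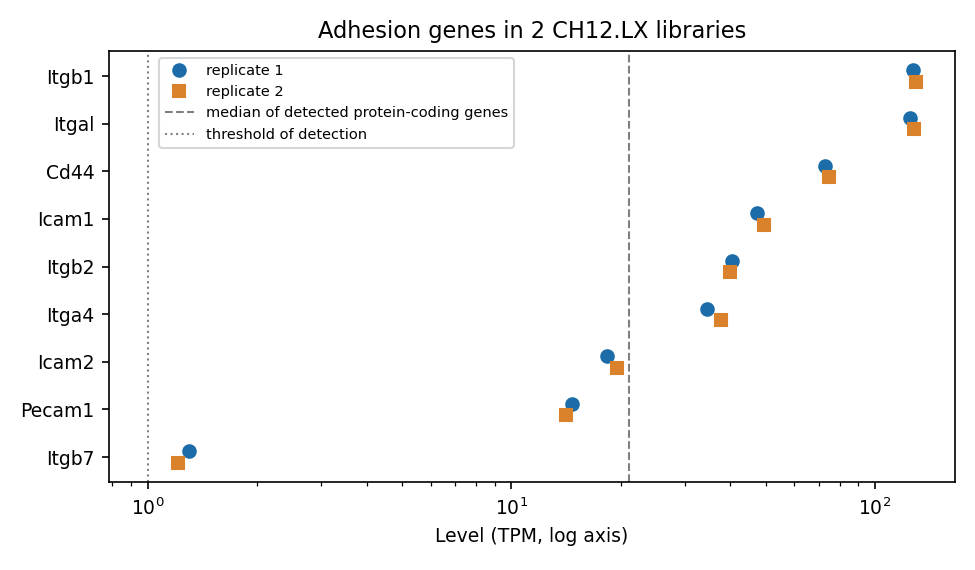
Level of each of the 9 adhesion genes in TPM on a log axis, with 1 point per library and the genes in order of their mean. Itgb1 and Itgal lie together near 128 and 126 TPM, 6 of the 9 genes lie above the dashed median of detected protein-coding genes at 21 TPM, and Itgb7 lies at 1.30 and 1.21 TPM beside the dotted threshold of 1 TPM.

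The order of mean levels was Itgb1, Itgal, Cd44, Icam1, Itgb2, Itga4, Icam2, Pecam1 and Itgb7, and each library alone gave the same order. Neighbours were called apart where their ranges over both libraries did not overlap. This held for 7 of the 8 neighbouring pairs, and Itgb1 and Itgal overlapped. In posterior mean TPM, a second estimate in the tables, this pair was apart, with Itgb1 at 121 and 123 TPM and Itgal at 117 and 120.75 TPM. With n = 2 the ranges give only a rough measure of the spread. In RNA from whole cultures, fewer cells that carry a transcript and less of it per cell cannot be told apart.

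The identity of the line was checked on marker genes. All 7 B cell markers were detected, from Pax5 at 27.5 and 36.3 TPM to Cd79b at 525 and 545 TPM. Of the markers of other cell types, 2 of 6 T cell, 2 of 8 myeloid, 2 of 8 endothelial, 2 of 6 platelet and megakaryocyte and 1 of 8 fibroblast and epithelial genes were detected. Their highest levels were 14.7 TPM for Pecam1, itself a member, and 8.11 TPM for the beta chain gene Itgb3.

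Itgal encodes the αL chain (CD11a), which pairs only with the β2 chain encoded by Itgb2. Itgal (ENSMUSG00000030830, chr7:127296260-127335138 of GRCm38, plus strand) stood at 125 and 128 TPM in replicates 1 and 2, which is 126 ± 2.16 TPM (SD, n = 2). Itgb2 (ENSMUSG00000000290, chr10:77530252-77565708, plus strand) stood at 40.4 and 39.8 TPM, which is 40.1 ± 0.403 TPM (SD, n = 2). The alpha chain transcript was thus the more abundant of the pair, by 3.09 times in replicate 1 and 3.21 times in replicate 2.

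Itgal made up nearly all of the alpha chain RNA that can pair with β2. It held 98.2 and 98.6% of the summed TPM of Itgal, Itgam, Itgax and Itgad, the leukocyte alpha chains of this family. Itgam, which encodes the αM chain of macrophages and granulocytes, stood at 1.79 and 1.24 TPM, and Itgax, a chain of dendritic cells, at 0.46 and 0.42 TPM.

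Itga4 encodes the α4 chain (CD49d), which pairs with β1 or with β7. Itga4 (ENSMUSG00000027009, chr2:79255426-79333123, plus strand) stood at 34.6 and 37.6 TPM, which is 36.1 ± 2.14 TPM (SD, n = 2). Itgb1 (ENSMUSG00000025809, chr8:128685654-128733200, plus strand), the shared beta chain of many matrix receptors, stood at 127.1 and 129.9 TPM, which is 128 ± 1.97 TPM (SD, n = 2). In this pair the beta chain transcript was the more abundant, and the ratio of Itga4 to Itgb1 was 0.272 in replicate 1 and 0.289 in replicate 2.

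Itgb7 encodes the β7 chain, the partner of α4 in the gut homing receptor and of αE in the receptor for E-cadherin. Itgb7 (ENSMUSG00000001281, chr15:102215995-102231944, minus strand) had 56 and 58 counts, which gave 1.30 and 1.21 TPM and a mean of 1.25 ± 0.0636 TPM (SD, n = 2). Its posterior mean level was 1.48 TPM in replicate 1 with a deposited interval from 0.986 to 2.06, and 1.33 TPM in replicate 2 with an interval from 0.924 to 1.80. Both intervals include 1 TPM, so its detection was not firm at this depth.

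Itga4 exceeded Itgb7 by 26.6 and 31.1 times, and Itgb1 exceeded Itgb7 by 97.8 and 107 times. Itgae, the other alpha partner of β7, was below the threshold at 0.29 and 0.19 TPM. Of the summed TPM of all 8 beta chain genes, Itgb1 held 71.5 and 71.8%, Itgb2 held 22.7 and 22%, and Itgb7 held 0.731 and 0.669%.

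Of 18 alpha chain genes, 8 (44.4%) were detected, and of 8 beta chain genes, 4 (50%) were detected. Both shares lie near the 48% of all protein-coding genes. Itgal alone held 61.9 and 59.2% of alpha chain TPM, and Itga4 held 17.1 and 17.4%. The next alpha chains were Itgav, a partner in vitronectin receptors, at 15.3 and 20.7 TPM, Itga6, a laminin receptor chain, at 8.69 and 10.9 TPM, and Itga3 at 6.41 and 6.60 TPM. Among the alpha chains that can pair with β1, Itga4 thus held 47.6 and 45.1% of the summed TPM. The third beta chain was Itgb3, known from platelets and a partner of αV, at 7.37 and 8.11 TPM. Among the other platelet and megakaryocyte markers, the alpha chain gene Itga2b was detected at 1.77 and 2.65 TPM. Gp1ba lay below the threshold at 0.89 and 0.62 TPM, Gp9 had 0 and 1 counts, and Pf4 and Ppbp had 0 counts in both libraries.

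**Figure D2:**
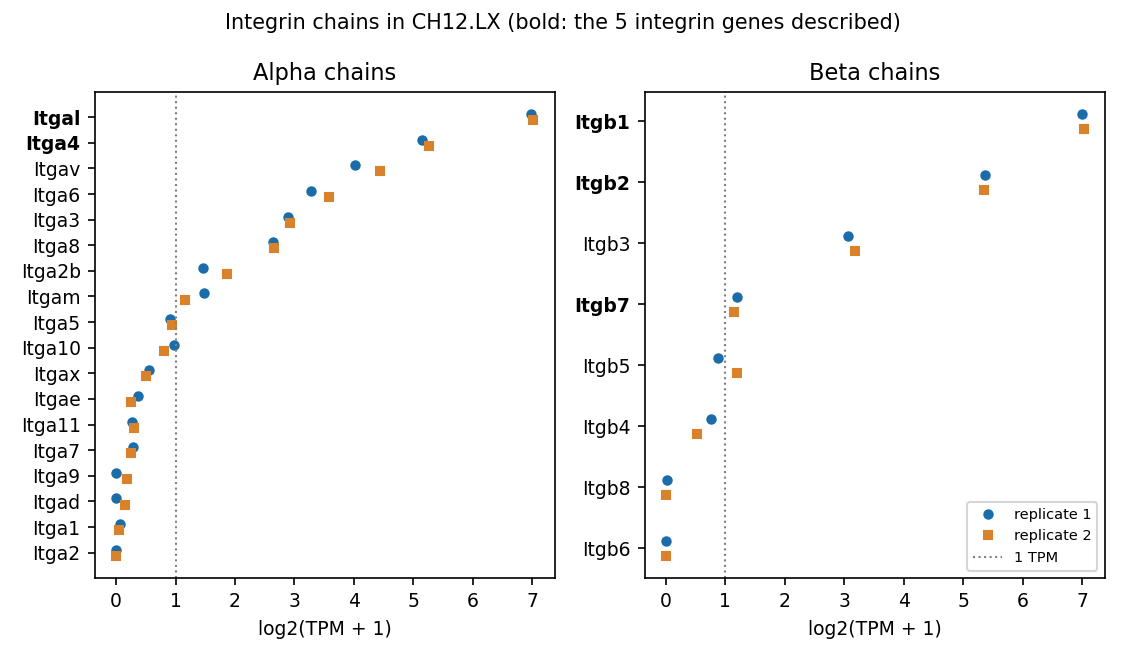
Level of 18 integrin alpha chain genes and 8 beta chain genes as log2(TPM + 1), with 1 point per library and the dotted line at 1 TPM. Itgal stands apart at the top of the alpha chains and Itgb1 at the top of the beta chains, and Itgb7 lies just past the line at 1.30 and 1.21 TPM.

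The share of each annotated transcript in its gene's TPM was read from the transcript tables. Transcripts carry their GENCODE names, such as Itgb2-201. The members have 44 transcripts in the tables, of which 30 had counts in both libraries. Itgb7 and Icam1 each had all their counts on 1 transcript, Itga4-201 held 97.0 and 97.6% of Itga4, and the other 6 genes were spread over several transcripts.

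**Figure D3:**
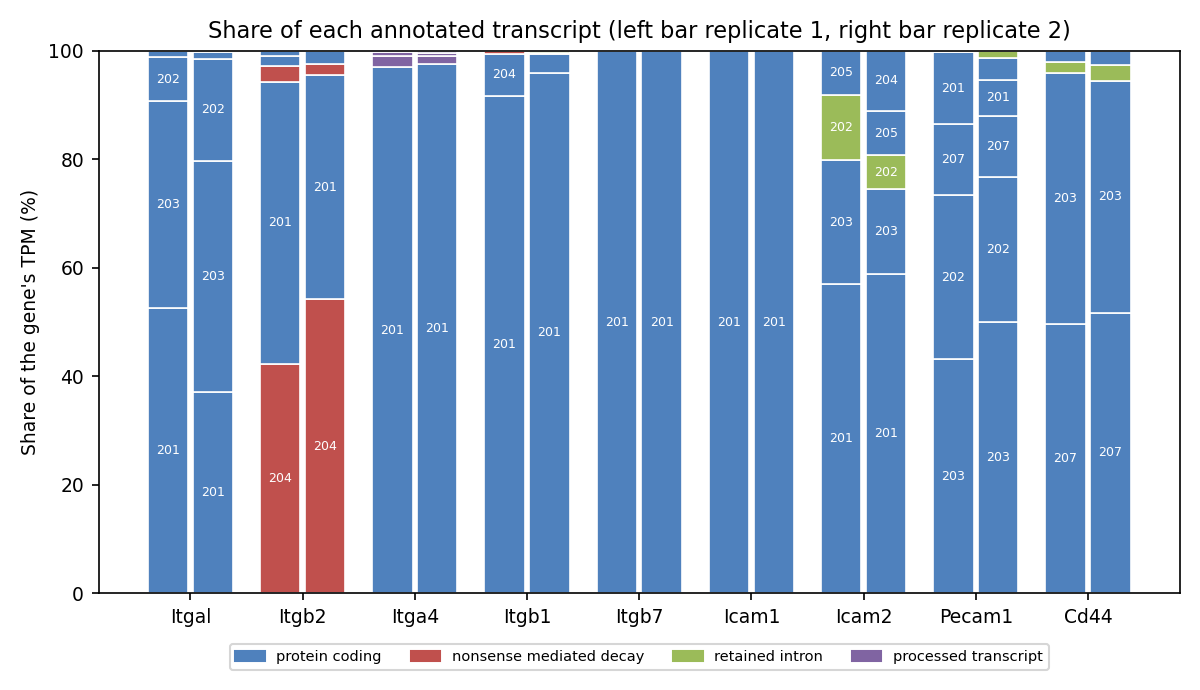
Share of each annotated transcript in its gene's TPM in percent, as stacked bars with replicate 1 on the left and replicate 2 on the right, coloured by annotated type and numbered by transcript where the share is at least 6%. In Itgb2 the coding transcript 201 and the decay transcript 204 change places between the libraries, and in Cd44 transcripts 207 and 203 together fill most of both bars.

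The transcripts of Itgb2 were divided between a coding form and one annotated as a target of nonsense-mediated decay, the pathway that removes messages with an early stop codon. The coding Itgb2-201, with 16 exons and 770 codons, held 51.9 and 41.4% of Itgb2 TPM. The decay form Itgb2-204 held 42.3 and 54.2%. The order of these transcripts thus reversed between the libraries, and their mean shares of 46.6 ± 7.45% and 48.2 ± 8.39% (SD, n = 2) were not apart.

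Itgb2-204 skips exon 12 of Itgb2-201, an exon of 245 bases at chr10:77559479-77559723. Since 245 is not a multiple of 3, the reading frame shifts and ends in the next exon, after 480 codons. The skipped exon and the junction that replaces it are shown because only they carry the change in frame. The first line below has the exon in capitals with 20 bases of each neighbouring exon, and the second has the stop codon of Itgb2-204 in capitals.
Itgb2-201 exon 12: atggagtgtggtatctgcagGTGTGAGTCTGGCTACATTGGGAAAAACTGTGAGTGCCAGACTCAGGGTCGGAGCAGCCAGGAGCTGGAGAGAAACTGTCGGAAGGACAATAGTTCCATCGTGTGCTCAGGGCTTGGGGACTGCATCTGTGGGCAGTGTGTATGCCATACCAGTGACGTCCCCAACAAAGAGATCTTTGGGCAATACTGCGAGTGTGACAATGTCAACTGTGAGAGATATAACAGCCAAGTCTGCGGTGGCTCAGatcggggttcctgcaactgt
Itgb2-204 junction: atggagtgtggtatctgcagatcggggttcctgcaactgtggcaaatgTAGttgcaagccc
In all, the 2 decay transcripts of Itgb2 held 45.3 and 56.2% of its TPM, or 18.3 and 22.4 TPM, and the coding ones 22.1 and 17.4 TPM. Of the windows of 41 bases in Itgb2-204, 59 of 2579 are absent from Itgb2-201, and in the other direction 410 of 2930 are. These windows do not come from the skipped exon alone. Itgb2-201 has 2970 bases and Itgb2-204 has 2619, so they also differ outside that exon of 245 bases. The posterior SD of the counts was 11.6 and 7.37% for Itgb2-204 and 7.49 and 7.55% for Itgb2-201.

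All 5 Itgal transcripts in the tables are annotated as coding, and 3 of them held most of its TPM. Itgal-201 held 52.6 and 37.1% of Itgal TPM and Itgal-202 held 8.01 and 18.6%. Both are full-length, with 31 exons and 1162 and 1161 codons, and inside the coding sequence they differ by 3 bases at the end of exon 18. The lines below show that junction, with the first bases of exon 19 in capitals.
Itgal-201 exon 18 to exon 19: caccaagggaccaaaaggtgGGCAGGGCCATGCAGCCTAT
Itgal-202 exon 18 to exon 19: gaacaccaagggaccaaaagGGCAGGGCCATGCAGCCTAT
With 42 of 5155 windows of Itgal-201 absent from Itgal-202, the posterior SD of Itgal-202 was 46.5 and 24.4% of its count, and the division between the pair was uncertain. Their sum was steadier, at 60.6 and 55.7% of Itgal, or 75.7 and 71.3 TPM.

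Most of the rest of Itgal was assigned to Itgal-203, a shorter coding transcript at 38.2 and 42.7%, or 47.7 and 54.6 TPM. It starts from an exon of its own at chr7:127309518-127309620, lacks the first 11 exons of Itgal-201 and has 765 codons. The ligand-binding I domain of αL lies in the N-terminal part of the chain, which is missing from this reading frame. Its first codons are printed because they are the only coding bases of its own, with those 19 bases in capitals.
Itgal-203 first codons: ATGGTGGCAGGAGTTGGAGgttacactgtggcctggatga
Of its 3869 windows, 102 are absent from Itgal-202, all others being shared with the full-length form. Its share therefore also depends on how reads spread along the gene, which the tables do not show.

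Itgb1 was carried by Itgb1-201, the full-length form with 16 exons and 798 codons, at 91.7 and 96.0%. The next transcript, Itgb1-204, is an incomplete annotated fragment of 711 bases with 107 and 53 counts, which gave 7.65 and 3.34%. It holds an extra exon of 81 bases at chr8:128726983-128727063, in which its reading frame ends. An alternative exon at this place in the gene is known to encode the tail of β1D, the form of striated muscle. The exon is shown in capitals with 20 bases on each side.
Itgb1-204 extra exon: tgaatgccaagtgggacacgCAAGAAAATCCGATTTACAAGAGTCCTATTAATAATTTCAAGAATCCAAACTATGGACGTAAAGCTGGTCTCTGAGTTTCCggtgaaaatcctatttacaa
Of the 671 windows of Itgb1-204, 121 are absent from Itgb1-201, and the posterior SD was 28.0 and 57.2% of its count. Whether any read covered the extra exon cannot be read from the tables.

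Icam1 and Icam2 encode ligands of LFA-1, and both were expressed beside the receptor in the same line. Icam1 (ENSMUSG00000037405, chr9:21015985-21028817, plus strand) stood at 47.4 and 49.5 TPM, which is 48.4 ± 1.5 TPM (SD, n = 2). Icam2 (ENSMUSG00000001029, chr11:106377656-106388075, minus strand) stood at 18.3 and 19.6 TPM, which is 18.9 ± 0.884 TPM (SD, n = 2). Icam1 exceeded Icam2 by 2.59 and 2.53 times, and Itgal exceeded Icam1 by 2.64 and 2.59 times.

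Icam1 had 1 transcript in the tables, and Icam2 had 5. Icam2-201, with 277 codons, held 56.9 and 58.8% of Icam2. The others rested on few counts, such as Icam2-203 at 36.8 and 30.0 counts, Icam2-202, a retained intron, at 21.03 and 12.83 counts, and Icam2-204 at 0 and 18.4 counts. The estimated share of Icam2-203, at 22.9 and 15.8%, was apart from those of the other minor transcripts. However, the posterior SD of the Icam2-203 count was 31.9 and 44.7%. Of the 534 windows of Icam2-203, 0 are absent from all other Icam2 transcripts. Its share thus rests only on how shared reads were divided, and its place above the other minor transcripts was not firm. The shares of Icam2-202, Icam2-204 and Icam2-205 overlapped, from 282 and 336 counts for the whole gene. The 3′ end of Icam1 overlaps the antisense gene Gm47079, which is not analysed here, and the sources do not say whether counting used strand.

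Of 20 immunoglobulin superfamily adhesion genes measured, 13 (65%) were detected, beside 48% of all protein-coding genes. The highest was Madcam1, which encodes the gut vessel ligand of α4β7, at 119 and 121 TPM, with 2692 and 3046 counts on its only transcript in the tables. Its level lay above that of Icam1 in both libraries, and its receptor chain Itgb7 was at 1.30 and 1.21 TPM. Vcam1, the ligand of VLA-4, stood at 1.49 and 1.32 TPM. Cd47, which binds SIRPα and associates with integrins, stood at 99.5 and 80.8 TPM, and the lymphocyte molecules Cd48 and Ly9 at 67.8 and 59.1 TPM and at 57.7 and 50.5 TPM.

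Pecam1 encodes PECAM-1 (CD31), a molecule that binds itself on neighbouring cells and carries inhibitory tyrosine motifs in its tail. Pecam1 (ENSMUSG00000020717, chr11:106654217-106750628, minus strand) stood at 14.7 and 14.1 TPM, which is 14.4 ± 0.389 TPM (SD, n = 2). PECAM-1 is best known from endothelium, and of the other 7 endothelial markers only Cdh5 was detected, at 1.10 and 1.00 TPM. Emcn, Cldn5 and Tie1 had 0 counts in both libraries, and Kdr, Tek and Vwf had between 0 and 3 counts. The summed TPM of the 8 markers was 15.8 and 15.2, of which Pecam1 itself was 14.7 and 14.1.

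Pecam1 had 8 transcripts in the tables, and 4 coding ones shared most of its TPM. Pecam1-203 held 43.1 and 50.05%, Pecam1-202 held 30.3 and 26.7%, Pecam1-207 held 13.1 and 11.2% and Pecam1-201 held 13.3 and 6.67%. Pecam1-203 lacks exon 14 of Pecam1-202, an exon of 57 bases at chr11:106671742-106671798 known to encode an inhibitory tyrosine motif of the tail. It is shown in capitals with 20 bases on each side, since it is the coding difference between the leading transcripts.
Pecam1-202 exon 14: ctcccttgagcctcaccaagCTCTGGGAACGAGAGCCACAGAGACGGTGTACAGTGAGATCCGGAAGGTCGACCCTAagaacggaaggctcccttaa
Transcripts with this exon held 56.7 and 48.6% of Pecam1 TPM in sum. The posterior SD of Pecam1-202 was 39.4 and 30.9% of its count and that of Pecam1-203 was 39.8 and 22.1%, so the order of these transcripts was not firm.

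Cd44 (ENSMUSG00000005087, chr2:102811141-102901665, minus strand) stood at 72.7 and 74.6 TPM, which is 73.6 ± 1.33 TPM (SD, n = 2), from 4689 and 5420 counts. Only Itgb1 and Itgal stood higher among the members, and Cd44 lay at percentile 91.0 of all protein-coding genes by mean level.

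Between the fifth exon and the last exons, the Cd44 gene has 10 variable exons, numbered v1 to v10 from the 5′ side. They are 90 to 207 bases long, and the length of each is a multiple of 3, so any of them can be left out without a shift in frame. Of the 9 Cd44 transcripts in the tables, 4 had counts. Cd44-203 holds no variable exon and has 9 exons and 365 codons, the standard form of lymphocytes. Cd44-207 holds v5, v6, v8, v9 and v10 and has 14 exons and 577 codons. Cd44-201 holds all 10, and Cd44-209 is a retained intron form.

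The junctions below are shown because they tell the leading transcripts apart. Each has the last 20 bases of an exon in lower case and the first 20 of the next in capitals. The first joins exon 5 straight to the exon after the variable run, and the others enter, cross and leave the variable run of Cd44-207.
Cd44-203 exon 5 to exon 6: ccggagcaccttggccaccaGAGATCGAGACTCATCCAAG
Cd44-207 exon 5 to v5: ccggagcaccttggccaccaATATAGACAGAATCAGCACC
Cd44-207 v6 to v8: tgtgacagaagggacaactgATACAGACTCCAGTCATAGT
Cd44-207 v10 to the next shared exon: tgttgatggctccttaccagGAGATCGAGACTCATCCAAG

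Cd44 was divided almost evenly between these transcripts. Cd44-207 held 49.7 and 51.7% of Cd44 TPM, or 36.1 and 38.6 TPM, and its mean share was 50.7 ± 1.45% (SD, n = 2). Cd44-203 held 46.2 and 42.6%, or 33.6 and 31.8 TPM, and its mean share was 44.4 ± 2.55% (SD, n = 2). The larger share went to Cd44-207 in both libraries, and the ranges did not overlap. However, only 40 of the 2808 windows of Cd44-203 are absent from Cd44-207, so its share rests on a short stretch. The posterior SD of the counts was 4.44 and 4.37% for Cd44-203 and 2.14 and 2.2% for Cd44-207.

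Transcripts with any variable exon held 51.7 and 54.4% of Cd44 in sum, since Cd44-201 added 2.05 and 2.67%. Cd44-209 held 2.02 and 2.96%. The 5 transcripts with other sets of variable exons, Cd44-202, Cd44-204, Cd44-205, Cd44-206 and Cd44-208, had 0 expected counts in both libraries. By posterior mean they held small shares, the highest being 1.87 and 0.70% for Cd44-206, with a posterior SD of 98.3 and 112% of its count. Of the 1265 windows of Cd44-206, 36 are in no other Cd44 transcript, so 0 expected counts does not show that it was absent.

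**Figure D4:**
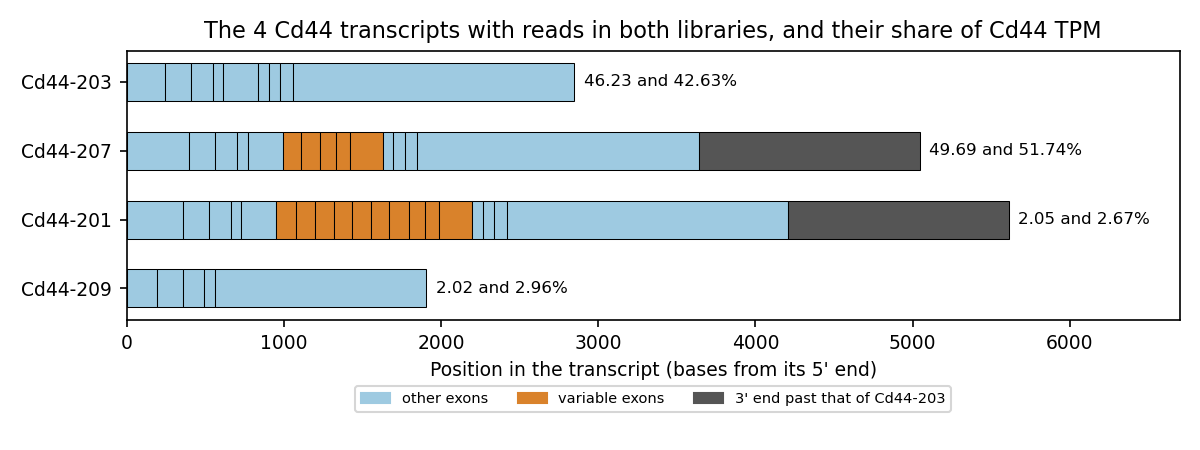
Exons of the 4 Cd44 transcripts with counts in both libraries, drawn to scale in bases from the 5′ end of each transcript, with the share of Cd44 TPM in replicates 1 and 2 at the right. The variable exons (orange) make up 636 bases of Cd44-207, and the dark 3′ end of 1406 bases occurs only in the transcripts that also hold variable exons.

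The assignment to Cd44-207 does not rest on variable exons alone. Its last exon runs 1406 bases past that of Cd44-203, and both transcripts in the tables with this longer 3′ end hold at least 5 variable exons. Of the 2237 windows of Cd44-207 that Cd44-203 lacks, 676 touch variable exons, 1406 lie in the 3′ end and 155 in the 5′ end. A message without variable exons but with the long 3′ end has no entry of its own, and reads from its end would count toward a transcript with variable exons. The part of the longer end in the share of Cd44-207 was not tested, as the tables hold no reads by position.

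The genes around Cd44 were read from a list of 21 genes that includes it. Of these, 13 (61.9%) were detected, beside 48% of all protein-coding genes. The linkers that tie the CD44 tail to the actin cortex were high, with Msn at 226 and 232 TPM, Ezr at 224 and 150 TPM and Rdx at 90.9 and 90.7 TPM. The related Nf2, which encodes merlin, stood at 83.0 and 75.0 TPM. Of the hyaluronan synthases, Has1 and Has2 had 0 counts and Has3 stood at 0.24 and 0.22 TPM.

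Of 12 regulators known to act on CD44 variable exons, 10 (83.3%) were detected, beside 48% of all protein-coding genes. The highest regulators were Ybx1 at 1663 and 1649 TPM, Hnrnpa1 at 1374 and 1297 TPM and Srsf1 at 542 and 533 TPM. The epithelial regulators Esrp1, with 1 count in each library, and Esrp2, at 0.28 and 0.18 TPM, were below the threshold.

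Integrins of leukocytes are activated through Rap1, talin and kindlin-3. A list of 32 genes of integrin activation and adaptors goes beyond this pathway. Of these, 28 (87.5%) were detected, beside 48% of all protein-coding genes. The median of the list was 40.8 TPM, beside 0.768 TPM for all protein-coding genes. The highest of the list were Rap1b, a small GTPase that drives activation, at 186 and 183 TPM, and Vasp, an actin regulator, at 187 and 141 TPM. Dock2, a Rac activator of lymphocytes, stood at 108 and 114 TPM, Parvg, an adaptor of the parvin family, at 102 and 103 TPM and Rasgrp3, an exchange factor for Rap and Ras, at 99.8 and 102 TPM. Kindlin-3, encoded by Fermt3, stood at 49.1 and 45.8 TPM, while its relatives Fermt1 and Fermt2 stood at 0 and at 0.09 and 0.17 TPM. Talin, encoded by Tln1, stood at 53.3 and 37.9 TPM.

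Selectins tether lymphocytes through sugars that carry sialic acid and fucose. Of 17 genes of selectins, their ligands and their glycosyltransferases, 7 (41.2%) were detected, near the 48% of all protein-coding genes. Sele, the selectin of activated endothelium, had 0 counts in both libraries, and Selp, the selectin of platelets and endothelium, had 3 and 4 counts. Selplg, which encodes the selectin ligand PSGL-1, stood at 14.1 and 16.1 TPM, while the fucosyltransferase Fut7, which completes its sugars, was at 0.57 and 0.43 TPM and Fut4 had 0 counts. The sialyltransferase St3gal6 was the highest of this list at 301 and 309 TPM.

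The members differed little between the libraries. The log2 ratio of replicate 2 over replicate 1, from counts scaled by the TMM method, ran from -0.09 for Itgb7 to 0.14 for Itga4. None of the 9 members differed by 1.5-fold or more, and 2369 of the 15340 genes with at least 10 counts (15.4%) did. Most of the latter had few counts, as 3.14% of the 10099 genes averaging 100 counts or more passed 1.5-fold, and 8 of the 9 members lie in that range. The median absolute log2 ratio was 0.0743 for the members, 0.172 for all 15340 genes and 0.129 for the 11046 with at least 100 summed counts.

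Itga4, Itgb1 and Cd44 differed by more than the counting error at a 95% level, with log2 ratios of 0.14 ± 0.05, 0.09 ± 0.04 and 0.07 ± 0.06. For Cd44 this did not hold with library totals in place of TMM, where its log2 ratio was 0.05 ± 0.06. With TMM the other 6 members did not differ by more than the counting error, and for Itgb7, at -0.09 ± 0.53, the interval does not exclude a fall of 1.5-fold. Counting error leaves out the variation between cultures, for which 2 libraries give only a rough estimate.

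**Figure D5:**
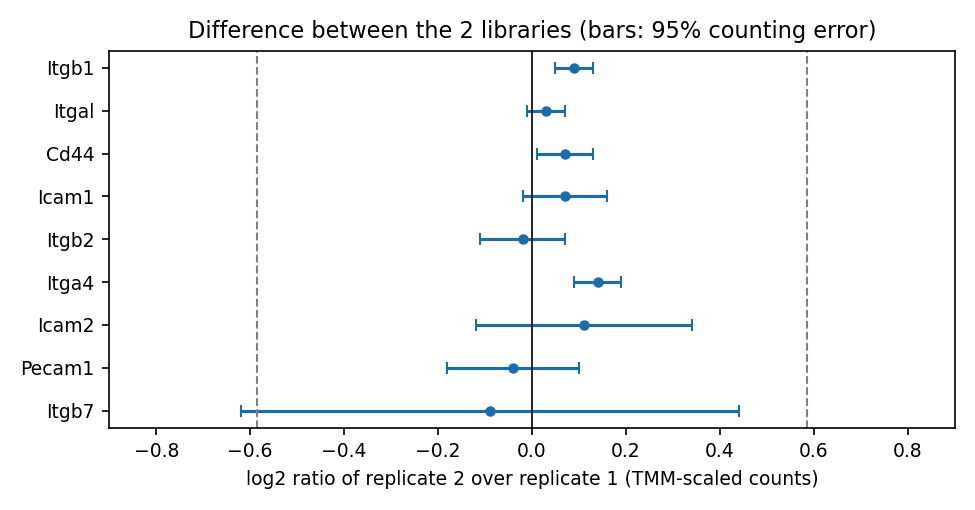
Difference between the libraries for each member as the log2 ratio of replicate 2 over replicate 1, with bars for the 95% counting error and dashed lines at 1.5-fold. All 9 points lie between the dashed lines, from -0.09 for Itgb7 to 0.14 for Itga4, and the bar of Itgb7 is the widest at ± 0.53.

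Outside the overlaps named below, reads could be placed on these genes with little doubt, though not on their transcripts. All windows of 41 bases of Itgal, Itgb1, Itgb7, Icam2 and Cd44 occur in the transcripts of no other gene, and 98.4% of those of Itgb2 and 97.9% of those of Pecam1. For Itga4 the share was 92.1%, mainly because its 3′ end overlaps Cerkl on the opposite strand, at 14.1 and 11.6 TPM, and for Icam1 it was 81.1%. The posterior SD of the gene counts was at most 0.318% of the posterior mean for every member in both libraries. For Icam1 it cannot register reads from Gm47079, which was not quantified and shares 471 of the 2495 Icam1 windows.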

How the data were processed

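Per the file headers, the authors deposited a gene and a transcript table for each library, with expected counts (estimated reads, not whole), TPM, FPKM and the percent of a gene on each transcript. The authors' tables also hold, as the headers state, posterior means, their SD and the bounds of an interval on the TPM signal, with no level stated. Per the deposited notes the assembly is mm10 with GENCODE M4. The sources used here do not give the aligner or quantification tool. Names, coordinates and sequences came from GENCODE M21, on the same assembly (GRCm38), and 41 of the 44 member transcripts have the same length in both versions. Number-only entries (26248, with 0.0426 and 0.0539% of counts) name no gene and did not enter the library sizes of the ratios. They are part of the total counts and member shares given above, and they hold 1.83 and 2.25% of TPM.

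Levels and shares are mean ± SD (n = 2), with no test. Ratios used rounded expected counts, TMM of edgeR 4.0.16 (alternatives: library totals and DESeq2 1.42.0), a pseudocount of 0.5 and a minimum of 10 summed counts, and were tested on simulated data. Windows of 41 bases match the deposited effective lengths, which are 40 bases under the lengths. Errors and floors (3 counts) cover counting only, since reads without molecular identifiers can repeat a molecule.

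The members and lists were chosen with earlier results of these data known. All members, up to 5 of the highest genes per list and undetected partners of members are named. Vcam1, Tln1, Fermt1, Fermt2, Fermt3, Itgam, Itgax, Sele, Selp, Fut4, Fut7, Esrp1, Esrp2 and the markers were named after their values were seen. Cd58 and Cd99 are not analysed here, and 1 list gene is not reported here by name.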

Additional observations from a re-analysis of the deposited data

How the results depend on the processing

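The order of the 9 levels was the same in posterior mean TPM, with 8 of 8 neighbouring pairs apart, and in each library alone. FPKM and TPM rescaled over Ensembl entries only also gave this order, with 7 of 8 pairs apart. Both multiply all genes of a library by 1 factor, so they could not change the order within a library. The mean level moved by more than the SD for some members. In posterior mean TPM, Itgb1 stood at 122, Itgal at 119, Cd44 at 70.3, Icam1 at 45.5, Itgb2 at 38.2, Pecam1 at 14.0 and Itgb7 at 1.41 TPM, and in rescaled TPM, Itgb1 stood at 131, Itgal at 129, Cd44 at 75.2 and Itgb2 at 41.0 TPM. Relative to TPM, the posterior mean ran from -5.95% for Icam1 to 11.95% for Itgb7. The share of Cd44 on transcripts with variable exons was 54.8% by posterior mean, and 51.7 to 54.4% with each replicate left out. By posterior mean, Pecam1-203 held 38.5%, Icam2-201 held 54.7%, Itga4-201 held 96.5% and Itgb7-201 held 84.5%.

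No member passed 1.5-fold under any of 5 alternatives. Those that change only the minimum of counts leave the ratios of the members as they are, so they could not alter this. The number of genes past 1.5-fold was 7960 of 43346 (18.4%) with no minimum of counts. With at least 100 counts it was 477 of 11046 (4.32%), as the minimum changes which genes are included. Of 128 genes on the adhesion lists, 83 were detected at 1 TPM, 88 at 0.5 TPM, 72 at 5 TPM and 79 at 1 FPKM. At 1 TPM, 10317 of 21474 protein-coding genes (48%) were detected. Each value rests on 2 libraries of 1 line. Depth limits Itgb7, with 56 and 58 counts, and the minor transcripts of Icam2, and the split between Itgal-201 and Itgal-202 and that between Pecam1-202 and Pecam1-203 depend on short stretches that set them apart. With library totals, the log2 ratio of Cd44 was 0.05 ± 0.06 and no longer past its counting error. Leaving out 1 library leaves no spread.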
